A study of Mus musculus with 6 samples.

Results

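The mitosis and cytokinesis genes are 42 named genes that act from entry into mitosis to the separation of the daughter cells: cyclins of the A and B type and regulators of Cdk1, mitotic kinases, and genes of the spindle, the centromere, the checkpoint, the chromosomes and the cleavage furrow. They were chosen by name, with earlier results of these data known, and 41 of the 42 were among the 12995 genes tested. Ccnb1, cyclin B1, had no probe set that the array annotation used pairs with it alone, and has no value here. Transcript levels were read on Affymetrix mouse arrays, 1 array per sample, in epithelial cells of the small intestine. The mice were C57BL/6 and 14 days old, an age also given as 2 weeks. The 3 replacement samples had the genotype Ecadflox/Ncad;Vil-Cre, that is, a floxed allele of E-cadherin, an allele named for N-cadherin, and Cre recombinase driven by the villin promoter, which is active in the epithelium of the gut. Their epithelium is described as having N-cadherin and lacking E-cadherin. The 3 control samples came from littermates that kept E-cadherin, and which of these alleles the littermates carried was not given in the sources used here. In both groups the cells were detached from the tissue beneath them with EDTA. The labels do not say that each sample is a separate animal, so the p-values measure only the spread between these samples, which may be technical.

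Dividing cells of the intestinal epithelium lie in the crypts, where stem cells and transit-amplifying cells pass through the cycle, while cells on the villi have left it. Transcripts of mitotic genes accumulate late in the cycle under the control of factors that include FoxM1, B-Myb, NF-Y and the DREAM complex, and many of the proteins are destroyed through the anaphase-promoting complex as mitosis ends. Cyclin A and cyclin B with Cdk1 drive entry, the spindle and the kinetochores align the chromosomes, the checkpoint holds back anaphase until every kinetochore is attached, and the central spindle then places the cleavage furrow.

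Cdh1, the gene of E-cadherin, had intensities of 2757, 2335 and 2204 on control arrays 1 to 3 and of 1073, 1175 and 1357 on replacement arrays 1 to 3. It fell by 1.06 on the log2 scale (SE 0.240, limma with Benjamini-Hochberg adjustment over all genes, adjusted p = 0.0250). Both probe sets of Cdh2, the gene of N-cadherin, lay under 16, the floor used here, on all 6 arrays, and whether they can read the introduced copy was not given in those sources. Epithelial marker genes were measured on every array, with summed intensities of 23824 to 25221 in control and 29871 to 36159 in replacement. Over 5109 bright probe sets the log2 intensities of control 2 and control 3 differed with an SD of 0.115, where other pairs within a group gave 0.347 to 0.564. Over 12 bright hybridization controls, the SD lay between 0.0431, the value for these 2 arrays, and 0.141 for other pairs. The 2 arrays were therefore averaged and counted as 1 replicate, so that n was 2 in control and 3 in replacement. Over the 41 members the SD of control 2 and control 3 was 0.447, and 0.228 without Foxm1. Control 1 and control 3 gave 0.263 over the members and 0.264 without Foxm1, and control 1 and control 2 gave 0.464 and 0.309. By Xist and Y-linked transcripts, control 1, replacement 2 and replacement 3 were female-like and the other arrays male-like.

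As a group the members, a list chosen with earlier results of these data known, were higher in replacement epithelium. Differences are given as replacement minus control on the scale of log2 intensity, with intensities under 16 set to 16. The difference was above 0 for 40 of the 41 members and below 0 for 1, with a median of 0.89, while the median over all genes tested was -0.02. In limma, 14 members rose at an adjusted p under 0.05, where 4.46% of all genes tested did so. A single member, Pttg1, fell, where 4.66% of all genes did. At an unadjusted p under 0.05 the counts were 31 members higher, against 11.4% of all genes, and 1 lower, against 12.9%. For 32 members every replacement array lay above every control array, which held for 17.8% of all genes, and for 1 member every replacement array lay below, which held for 18.8%. Ndc80, counted among the higher members in each of these unadjusted counts, was under the floor on all control arrays. It was kept through its replacement arrays alone, so its direction was fixed by the filter. The fold, in either direction, was 2 or more for 17 members, among them Pttg1, which fell, and the share over all genes was not counted. In samples of many cells, more dividing cells and more RNA per dividing cell cannot be told apart. The ratio of the 3' to the 5' probe set of actin, a sign of RNA quality, was 1.35, 1.30 and 1.33 on the control arrays and 1.24, 1.10 and 1.20 on the replacement arrays, without overlap. The same ratio of Gapdh overlapped, at 0.651 to 0.774 in control and 0.660 to 0.715 in replacement. Their part in the members' difference was not tested.

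The number of calls depended on single samples. Without control 1 no member passed in limma, with 22 at an unadjusted p under 0.05. Without the averaged control 2 and 3 none passed either, with 16 at an unadjusted p under 0.05, and each of these fits rests on 1 control replicate that is assumed to vary like the replacement samples. Without replacement 3 none passed, with 27 at an unadjusted p under 0.05. Without replacement 2 there were 3 higher and 0 lower, with 26 at an unadjusted p under 0.05, whereas without replacement 1 there were 23 higher and 1 lower. The median difference of the members lay between 0.753 and 0.998 in these fits, and each of the 15 called members kept the sign of its difference in them. With quantile normalization or scaling to the array medians the members' median was 0.86 and 0.93, and 40 of 41 were again above 0.

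**Figure D1:**
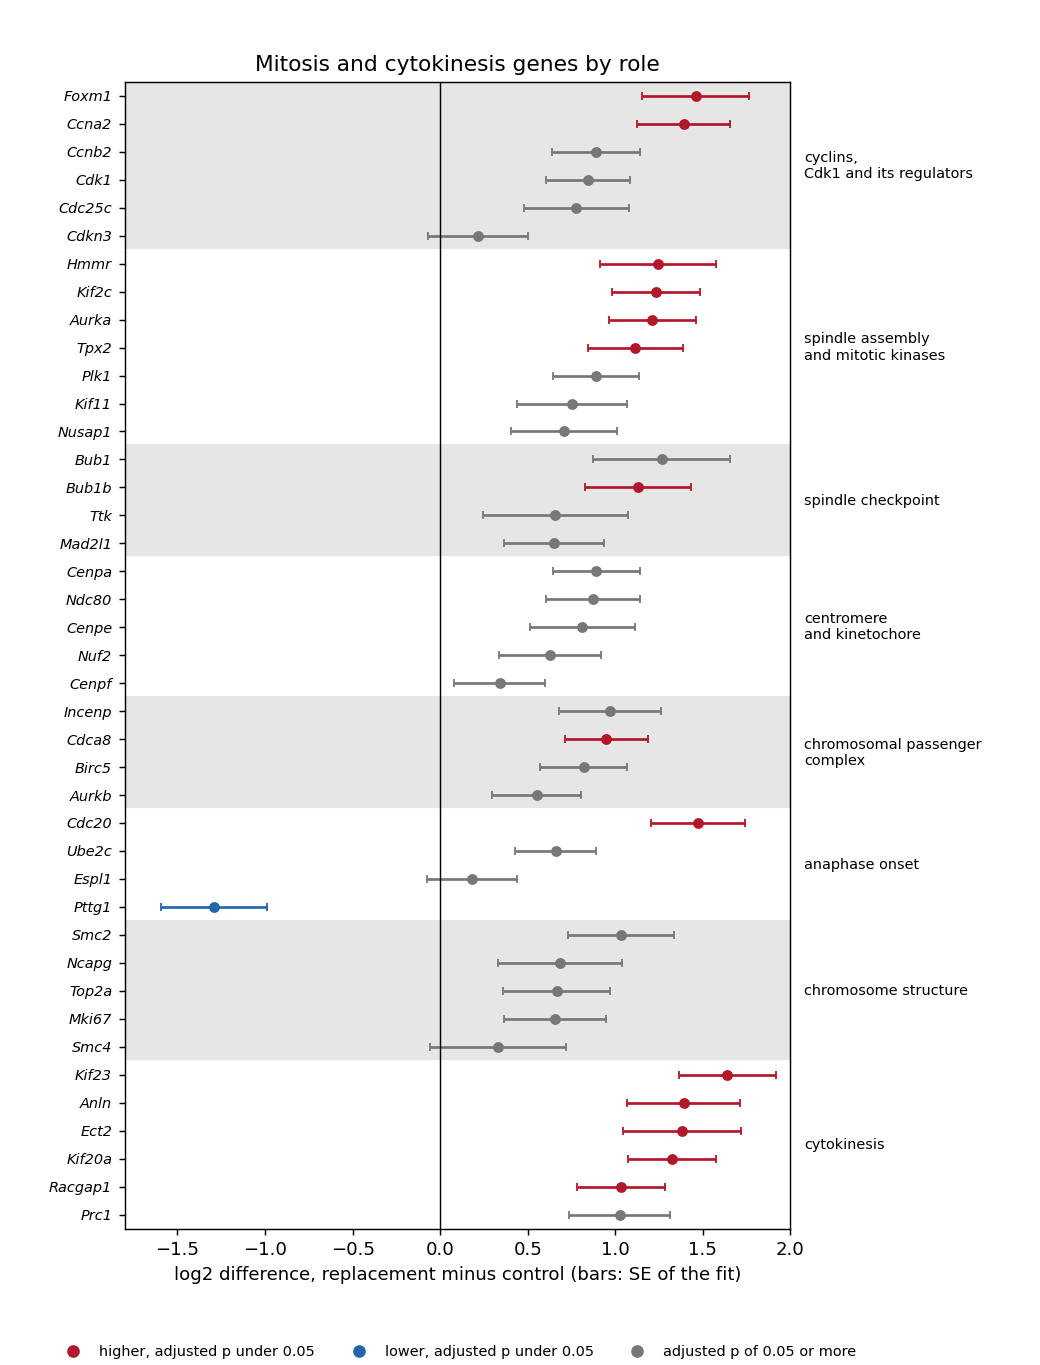
Difference of each of the 41 members, replacement minus control in log2 intensity, grouped by role, with bars of 1 SE from limma. Red marks the 14 members that rose and blue the 1 that fell at an adjusted p under 0.05, and the cytokinesis genes at the bottom have a median of 1.35.

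Promoters of 6 members that passed the test, 5 that rose and 1 that fell, are printed to show where short motifs known from cell cycle promoters stand in them. The CHR core (TTTGAA, from the cell cycle genes homology region) is known as a contact of DREAM and of related complexes, and the CCAAT box is bound by NF-Y. Both were searched on both strands in the RefSeq promoter table of GRCm38.p6, which gives 250 bases before and 50 bases after a start site and holds 34 of the 42 members. The 6 are the called members with the smallest p that have an entry and may be printed here. Capitals mark the motif letters, in the orientation of the gene, so a match on the other strand reads TTCAAA or ATTGG. Kif23 lies at chr9:61946750-61947049, Cdc20 at chr4:118437294-118437593 and Kif2c at chr4:117178723-117179022. Aurka lies at chr2:172370521-172370820, Anln at chr9:22389157-22389456 and Pttg1 at chr11:43425932-43426231, and all 6 are on the minus strand.
Kif23: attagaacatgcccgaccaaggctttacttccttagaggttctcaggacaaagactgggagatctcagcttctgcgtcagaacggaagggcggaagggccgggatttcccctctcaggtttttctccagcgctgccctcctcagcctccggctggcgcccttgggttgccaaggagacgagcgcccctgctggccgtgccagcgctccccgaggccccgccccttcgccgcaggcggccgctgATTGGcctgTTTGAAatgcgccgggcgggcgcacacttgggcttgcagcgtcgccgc
Cdc20: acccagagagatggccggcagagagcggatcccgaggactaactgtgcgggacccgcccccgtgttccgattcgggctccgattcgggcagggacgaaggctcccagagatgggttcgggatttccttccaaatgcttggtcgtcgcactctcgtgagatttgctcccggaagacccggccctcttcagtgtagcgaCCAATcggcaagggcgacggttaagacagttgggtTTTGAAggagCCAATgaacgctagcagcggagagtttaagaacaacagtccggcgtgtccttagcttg
Kif2c: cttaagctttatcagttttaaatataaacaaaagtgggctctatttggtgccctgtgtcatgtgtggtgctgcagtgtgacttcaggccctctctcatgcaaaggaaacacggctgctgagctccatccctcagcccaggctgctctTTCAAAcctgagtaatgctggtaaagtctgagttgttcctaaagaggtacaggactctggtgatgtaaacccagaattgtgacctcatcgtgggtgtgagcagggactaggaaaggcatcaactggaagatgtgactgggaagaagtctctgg
Aurka: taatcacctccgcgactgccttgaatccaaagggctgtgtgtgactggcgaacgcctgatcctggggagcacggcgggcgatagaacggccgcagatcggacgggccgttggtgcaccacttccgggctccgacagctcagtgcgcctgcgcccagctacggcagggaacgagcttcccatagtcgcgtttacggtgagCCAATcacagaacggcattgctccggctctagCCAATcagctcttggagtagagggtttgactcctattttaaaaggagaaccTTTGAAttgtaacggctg
Anln: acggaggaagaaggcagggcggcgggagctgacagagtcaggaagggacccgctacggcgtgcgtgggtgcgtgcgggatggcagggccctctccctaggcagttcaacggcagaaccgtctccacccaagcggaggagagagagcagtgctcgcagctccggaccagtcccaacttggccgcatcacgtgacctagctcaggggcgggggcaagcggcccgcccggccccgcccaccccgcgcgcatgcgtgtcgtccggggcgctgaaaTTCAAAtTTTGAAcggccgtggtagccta
Pttg1: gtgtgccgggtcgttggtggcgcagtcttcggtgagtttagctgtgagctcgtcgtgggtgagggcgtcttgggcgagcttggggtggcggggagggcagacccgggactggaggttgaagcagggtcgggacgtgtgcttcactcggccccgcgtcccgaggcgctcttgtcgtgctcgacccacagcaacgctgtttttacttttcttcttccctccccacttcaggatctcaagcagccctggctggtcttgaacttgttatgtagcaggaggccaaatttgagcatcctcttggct

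Among the 34 members with a promoter entry, 26 (76.5%) held the CHR core, where 20.2% of the 27025 genes in the table did. The CCAAT box was found in 26 members (76.5%), against 41.1% of all genes. Both motifs stood in 23 members (67.6%), against 8.97%, and 5 members had neither, against 47.7% of all genes. Within 50 bases of the start, a distance chosen after the positions were seen, the CHR core was present in 23 members (67.6%) and in 5.72% of all genes. In Kif23 the first base of the CHR core was base 2 after the start and in Cdc20 it was -18, while Aurka had it at 32 and Kif2c, on the opposite strand, at -103. Anln held the core on each strand, at 21 and 28, and no CCAAT box. The window of Pttg1, the member that fell, contained neither set of letters. Nor did those of Birc5, Nusap1, Mad2l1 and Nuf2, whose differences were above 0, at 0.82, 0.70, 0.65 and 0.63, and which did not pass the test. The core was in 10 of the 10 members called higher that have an entry and in 16 of the 22 tested members that were not called (72.7%). The CCAAT box was in 8 of those 10 and in 17 of those 22 (77.3%). A match is a run of letters and not a measured site, and 17 of 36 member entries began at the gene start of the RefSeq gene table, so other start sites would shift these windows.

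**Figure D2:**
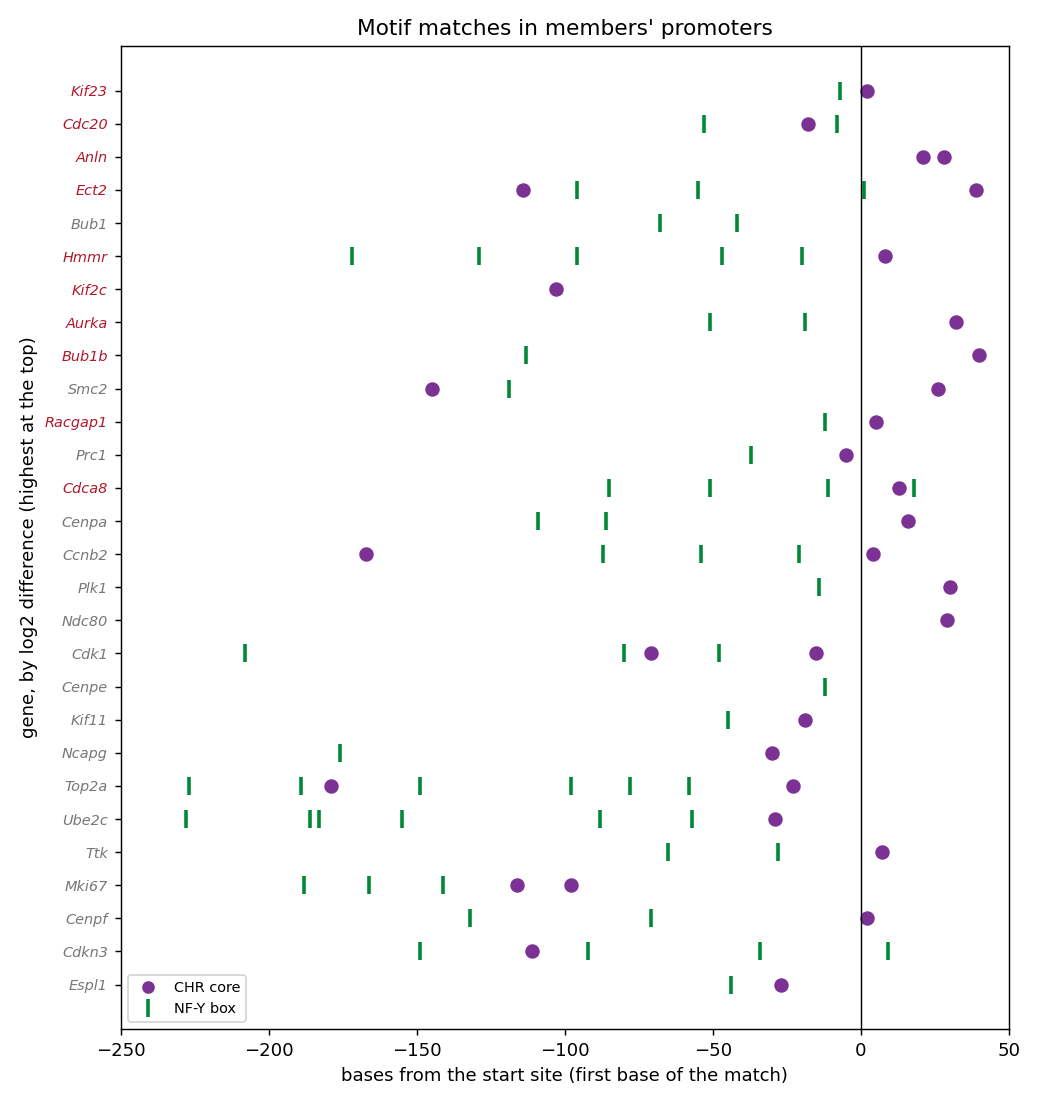
Position of each CHR core (purple circles) and NF-Y box, CCAAT (green bars), in the promoters of the 28 tested members with a match, in bases from the start site, ordered by log2 difference from the highest at the top. Names in red are members that rose. Circles lie within 50 bases of the start in 23 of the 34 members with an entry.

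Counts by role and by list from here on stand beside shares over all genes tested of 4.46% higher and 4.66% lower. The share with all replacement arrays above all control arrays was 17.8%. Among the cyclins, Cdk1 and its regulators, 2 of 6 tested members rose and none fell, with a median difference of 0.87. Ccna2, cyclin A2, which pairs with Cdk2 and Cdk1 in S phase and early mitosis, had intensities of 212.7, 225.9 and 254.7 on the control arrays and 453.7, 722.5 and 633.0 on the replacement arrays. All replacement arrays lay above all control arrays, with replacement 1 the lowest of its group. The difference was 1.39 (SE 0.267, adjusted p = 0.0126), a 2.62-fold rise. Foxm1, a transcription factor that drives G2 and M phase genes, read 21.3, 86.1 and 6.5 in control and 86.2, 60.4 and 88.7 in replacement. Here the groups overlapped, since control 2 was as high as the replacement arrays, and control 3 lay under the floor. The fitted difference of 1.46 (SE 0.307, adjusted p = 0.0186) averaged control 2 and 3. It ranged from 0.85 with control 2 alone to 2.07 with control 3 alone, and the call was lost in 8 of 17 alternatives, among them the fit with 6 separate arrays (adjusted p = 0.124). The other Foxm1 probe set that was kept gave 0.43.

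The remaining members of this group did not pass the test. Ccnb2, cyclin B2, had 153.9, 136.5 and 176.3 in control and 283.8, 351.6 and 235.5 in replacement, a difference of 0.89 (SE 0.252, adjusted p = 0.0585). Cdk1, the kinase that cyclins A and B activate, had 224.0, 190.5 and 211.4 against 356.5, 450.9 and 344.4, a difference of 0.85 (SE 0.241, adjusted p = 0.0592). In both genes the groups did not overlap. Cdc25c, a phosphatase that activates Cdk1, was close to the floor in control, at 16.9 to 17.5, and reached 20.2 to 38.4 in replacement, with a difference of 0.78 (SE 0.301, adjusted p = 0.146). Cdkn3, a phosphatase that acts on cyclin-dependent kinases, showed overlapping groups, at 63.2 to 83.4 in control and 67.4 to 112.1 in replacement, with a difference of 0.22 (SE 0.284, adjusted p = 0.703).

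Of the spindle assembly genes and mitotic kinases, 4 of 7 members rose and none fell, with a median difference of 1.11. All 7 had an unadjusted p under 0.05. Kif2c, a kinesin that takes microtubules apart at their ends, read 55.8, 54.0 and 52.8 in control and 101.9, 141.1 and 146.3 in replacement. The control arrays lay close together and below every replacement array, with a difference of 1.23 (SE 0.252, adjusted p = 0.0167). This probe set is of a kind that may cross-hybridize, and the other 3 Kif2c probe sets kept gave 1.06, 0.60 and 0.13. Aurka, Aurora A, the kinase of the spindle poles, had 97.7, 89.3 and 101.2 in control and 188.6, 273.9 and 215.7 in replacement, without overlap. It rose by 1.21 (SE 0.249, adjusted p = 0.0168), or 2.32-fold.

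Tpx2, which activates Aurora A on spindle microtubules, read 63.8, 43.1 and 48.1 in control and 93.3, 127.9 and 133.3 in replacement, again without overlap. The difference was 1.11 (SE 0.271, adjusted p = 0.0340), and the other 3 Tpx2 probe sets gave 0.34 to 0.54. Hmmr, a protein that binds spindle microtubules, had 81.7, 69.8 and 68.9 in control and 119.5, 178.4 and 264.6 in replacement. Its replacement arrays spread widely but all lay above control. Its difference was 1.24 (SE 0.331, adjusted p = 0.0471), its other 3 kept probe sets gave 0.91 to 1.41, and its call was lost in 10 of 17 alternatives. Plk1, Polo-like kinase, which acts from centrosome maturation to cytokinesis, had 127.1, 103.0 and 105.5 against 193.8, 252.5 and 197.8. The groups were apart, but the difference of 0.89 (SE 0.246, adjusted p = 0.0539) did not pass. Kif11, the kinesin that pushes spindle poles apart, gave 0.75 (SE 0.315, adjusted p = 0.176) with overlapping groups. Nusap1, which bundles spindle microtubules, gave 0.70 (SE 0.303, adjusted p = 0.188), with 247.1 on replacement 1 hardly above the highest control array, at 228.6.

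In the spindle checkpoint 1 of 4 members rose and none fell, with a median difference of 0.90. Bub1b, the BubR1 component of the inhibitor that restrains Cdc20, read 42.3, 68.9 and 48.1 in control and 79.0, 110.2 and 145.3 in replacement. The groups did not overlap, although control 2 came within reach of replacement 1. The difference of 1.13 (SE 0.303, adjusted p = 0.0479) lay just inside the threshold and was lost in 9 of 17 alternatives. Bub1, the kinase that recruits checkpoint proteins to kinetochores, had nearly equal controls of 59.7, 59.6 and 60.1 and replacement values of 77.8, 197.0 and 193.4. Replacement 1 stood well under the other two, and the difference of 1.26 (SE 0.390, adjusted p = 0.0778) did not pass, though it was larger than that of Bub1b. Without replacement 1 it was 1.71 (adjusted p = 0.00536). Ttk, the Mps1 kinase that starts checkpoint signalling, had 38.2 on replacement 1, below all controls (38.6 to 51.3), and 107.2 and 96.6 on replacement 2 and 3. Its difference was 0.66 (SE 0.413, adjusted p = 0.375), and a second probe set gave -0.11. Mad2l1, which binds and holds Cdc20, read 259.5 to 334.7 in control and 377.2 to 639.9 in replacement, a difference of 0.65 (SE 0.285, adjusted p = 0.199).

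None of the 5 centromere and kinetochore members passed in limma, with 3 at an unadjusted p under 0.05, and their median difference was 0.81. Cenpa, the histone H3 variant that marks centromeres, had 119.8, 81.5 and 96.4 in control and 206.2, 200.7 and 169.1 in replacement. The groups lay apart, at a difference of 0.89 (SE 0.248, adjusted p = 0.0548). Ndc80, the microtubule-binding subunit of the outer kinetochore, was under the floor on all 3 control arrays (12.7 to 14.1) and read 23.7, 27.4 and 38.7 in replacement. Its fitted difference was 0.87 (SE 0.269, adjusted p = 0.0774). With all control arrays under the floor, Ndc80 passed the filter only through replacement, so this difference could only come out above 0. Nuf2, its partner in the same complex, had 81.7 on replacement 1 beside a highest control of 80.8, and gave 0.63 (SE 0.292, adjusted p = 0.224). Cenpe, a kinesin that carries chromosomes to the spindle equator, gave 0.81 (SE 0.300, adjusted p = 0.130). Cenpf, a large protein of the outer kinetochore, gave 0.34 (SE 0.258, adjusted p = 0.475), with overlapping groups.

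The chromosomal passenger complex, which corrects faulty attachments and later moves to the central spindle, had 1 of 4 members higher and none lower, with a median difference of 0.88. In all 4 the replacement arrays lay above the control arrays. Cdca8, borealin, read 290.1, 293.3 and 276.3 in control and 522.1, 651.0 and 501.7 in replacement. Both groups were tight, and the difference of 0.95 (SE 0.237, adjusted p = 0.0377) corresponds to 1.93-fold. The other Cdca8 probe sets gave 1.49 and 0.83. Incenp, the scaffold of the complex, gave 0.97 (SE 0.291, adjusted p = 0.0711), with 239.7 to 319.7 in control and 415.0 to 732.4 in replacement. The Incenp probe set used may cross-hybridize, and the other kept ones gave 0.57 and 0.69. Birc5, survivin, had 208.7, 166.6 and 184.9 against 402.4, 323.2 and 296.1. This was a member in which replacement 1 was the highest array, and its difference was 0.82 (SE 0.247, adjusted p = 0.0716). Aurkb, Aurora B, the kinase of the complex, gave 0.55 (SE 0.255, adjusted p = 0.221) on a probe set that may cross-hybridize, and a dimmer one gave 0.70.

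Genes of anaphase onset went in both directions. Cdc20, the activator that brings the anaphase-promoting complex to its mitotic targets, had 279.4, 249.0 and 252.8 in control and 571.4, 923.7 and 751.3 in replacement. Every replacement array was above every control array. The difference was 1.47 (SE 0.267, adjusted p = 0.00991), or 2.77-fold. The other 2 Cdc20 probe sets gave 1.22 and 0.75, and the one used may cross-hybridize. The one at 0.75 was under the floor on all control arrays and kept only through replacement, so it could only rise. Pttg1, securin, the inhibitor of separase that Cdc20 sends for destruction, had 863.6, 898.5 and 845.3 in control and 501.5, 255.0 and 347.8 in replacement. All replacement arrays were below all control arrays, and replacement 1, the lowest array for most members, was here the highest of its group. Pttg1 fell by 1.29 (SE 0.302, adjusted p = 0.0286), 2.45-fold lower. Its 2 other probe sets gave -1.23 and -0.70, and in the dimmer of these the arrays overlapped. Since this call rests on a probe set that may read more than 1 transcript, the like direction of the second, at 251.7, 283.5 and 273.4 in control and 184.9, 85.6 and 91.4 in replacement, is given beside it.

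Espl1, separase, the protease that securin holds, had overlapping groups, at 36.2 to 49.7 in control and 42.4 to 58.2 in replacement, and a difference of 0.18 (SE 0.257, adjusted p = 0.723). Ube2c, the ubiquitin-conjugating enzyme of the anaphase-promoting complex, read 341.7, 321.5 and 310.9 against 578.6, 517.8 and 467.2. Its groups were far apart for their spread, and replacement 1 was the highest array. The difference of 0.66 (SE 0.232, adjusted p = 0.115) did not pass.

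**Figure D3:**
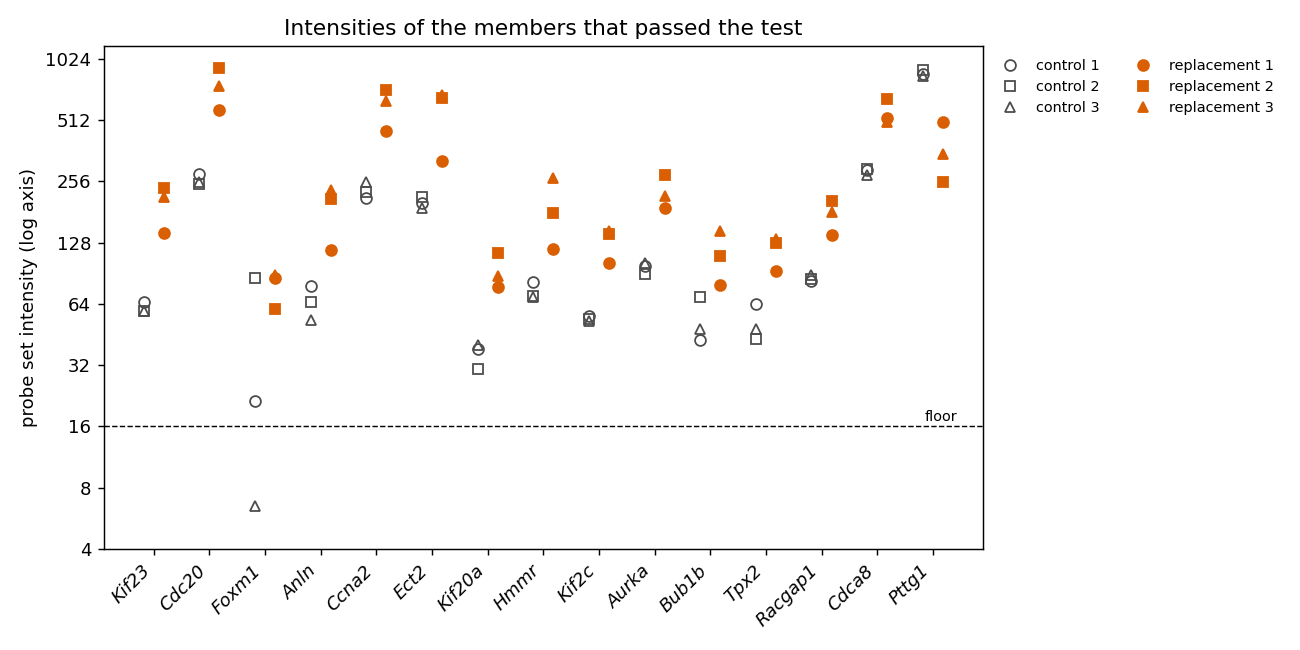
Intensity of the 15 members that passed the test on each of the 6 arrays (log axis), with open symbols for control and filled symbols for replacement and the floor of 16 as a dashed line. Groups are apart in 14 genes and overlap in Foxm1, where control 2 read 86.1 and control 3 read 6.5, and Pttg1 is the gene with replacement below control.

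Among the genes of chromosome structure none of 5 passed in limma, with 2 at an unadjusted p under 0.05, and the median difference was 0.67. Smc2, a core subunit of condensin, had 168.0, 183.5 and 165.0 in control and 236.4, 417.5 and 435.2 in replacement. The groups did not overlap, and the difference of 1.03 (SE 0.303, adjusted p = 0.0649) did not pass. Smc4, its partner in the condensin core, had 221.7 on replacement 1, below all controls (286.2 to 354.5), and 540.4 and 539.3 on replacement 2 and 3. Its difference was 0.33 (SE 0.387, adjusted p = 0.662). Ncapg, a condensin I subunit, gave 0.69 (SE 0.356, adjusted p = 0.278).

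Mki67, the proliferation marker that coats mitotic chromosomes, read 348.0, 229.2 and 246.9 in control and 355.1, 448.7 and 584.4 in replacement. Replacement 1 exceeded control 1 by little, and the difference was 0.66 (SE 0.292, adjusted p = 0.204). Top2a, the topoisomerase that separates sister DNA, had 440.7, 347.9 and 356.6 against 445.9, 641.7 and 853.5. It gave 0.67 (SE 0.304, adjusted p = 0.215), but a dimmer Top2a probe set gave -0.94, and the mean of both gave -0.14. These widely used proliferation markers were thus not among the members that passed.

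Cytokinesis genes had the highest share of calls, 5 of 6 higher and none lower, and a median difference of 1.35. In all 6 the replacement arrays lay above the control arrays. Kif23, the kinesin subunit of centralspindlin, had 65.1, 58.9 and 59.3 in control and 142.8, 236.7 and 213.7 in replacement. Its difference of 1.64 (SE 0.276, adjusted p = 0.00680), or 3.12-fold, was the largest of the 41 members, with a 95% confidence interval of 1.02 to 2.26. A second, dimmer Kif23 probe set gave 1.82, but it was under the floor on all control arrays and kept only through replacement. The direction of that probe set was therefore fixed by the filter. Racgap1, the other subunit of centralspindlin, read 82.9, 84.8 and 88.7 against 140.2, 205.2 and 180.8. The controls were nearly equal and all replacement arrays higher, with a difference of 1.03 (SE 0.251, adjusted p = 0.0342). Ect2, a protein that acts at the cell equator to form the furrow, had 201.4, 213.3 and 189.3 in control and 321.2, 655.8 and 682.3 in replacement. Replacement 1 was less than 2-fold above control and the other arrays over 3-fold, and the difference was 1.38 (SE 0.339, adjusted p = 0.0351).

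Anln, anillin, the scaffold that ties actin, myosin and septins at the furrow, read 78.0, 65.6 and 53.6 in control and 117.2, 208.6 and 231.8 in replacement. The groups did not overlap, with a difference of 1.39 (SE 0.324, adjusted p = 0.0286). Kif20a, the kinesin that takes the passenger complex to the central spindle, had 38.4, 30.6 and 40.0 against 77.8, 113.6 and 87.8. Every replacement array was at or above 77.8 and no control array above 40.0, a difference of 1.33 (SE 0.252, adjusted p = 0.0120). Prc1, which bundles the overlapping microtubules of the central spindle, had 110.8, 95 and 60.6 in control and 142.0, 202.8 and 225.7 in replacement. Its control arrays spread more than those of the other cytokinesis genes, and its difference of 1.03 (SE 0.289, adjusted p = 0.0576) did not pass.

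The members' levels differed between the replacement arrays. The median member lay 0.67 above the control mean on replacement 1, 1.11 on replacement 2 and 1.09 on replacement 3, while the control arrays lay at 0.08, -0.11 and -0.06. Replacement 1 was the lowest array of its group for 31 of 41 members, replacement 2 for 3 and replacement 3 for 7. On replacement 1, 34 members were above all control arrays, on replacement 2 37 and on replacement 3 39. Control 1 was the highest control array for 28 members. Between female-like arrays, where control 1 is the sole control array, the median difference of the members was 0.93, with 40 of 41 above 0. Between male-like arrays, where replacement 1 is the sole replacement array, it was 0.76, with 38 above 0. All 14 members that rose had a difference above 0 in both comparisons. Both comparisons use the arrays that gave the calls, so they are not separate support for them. Of 76 probe sets of members that were kept, 71 had a difference above 0 and 5 below, and the share over all kept probe sets was not counted. The kept probe set of Ndc80 and the dimmest kept ones of Kif23, Cdc20 and Smc2 were under the floor on all control arrays. They passed the filter through replacement arrays alone and could only come out above 0.

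**Figure D4:**
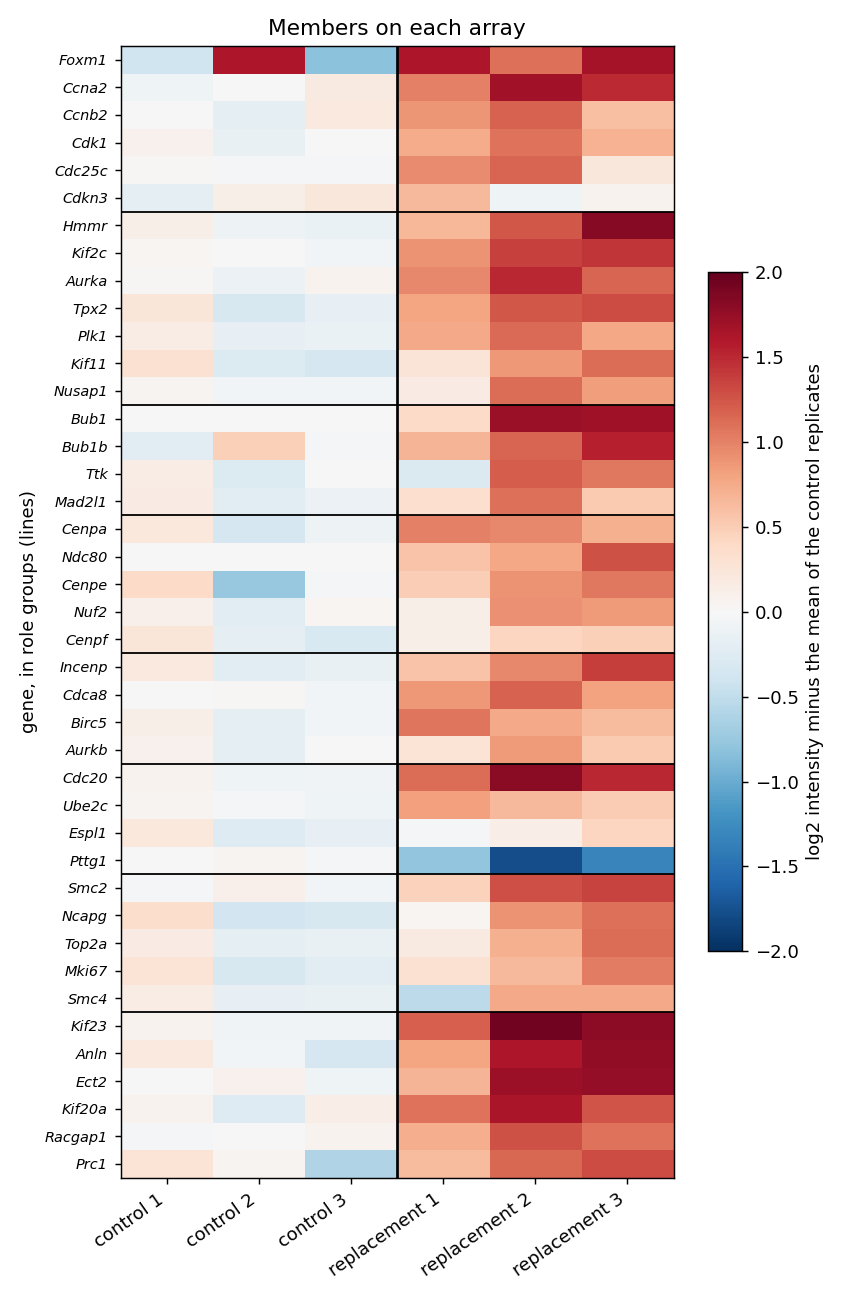
Log2 intensity of each of the 41 members on each array minus the mean of the control replicates, with members in lines by role and arrays in columns, on a scale from blue (lower) to red (higher). Replacement 1 is paler than replacement 2 and 3, with array medians of 0.67, 1.11 and 1.09, and Pttg1 is blue on all 3 replacement arrays.

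Markers of other cells moved with the groups in part. Of 8 markers of crypt base stem cells tested, 6 had a difference below 0, with a median of -0.25. Prom1, prominin, rose by 2.50 (SE 0.288, adjusted p = 0.00103). Axin2, a Wnt target, gave -0.81 (SE 0.282, adjusted p = 0.111), Lgr5, the stem cell receptor, -0.53 (SE 0.264, adjusted p = 0.256) and Olfm4 -0.42 (SE 0.235, adjusted p = 0.320), each with all replacement arrays below all control arrays. The markers summed to 4021 to 4665 in control and 3925 to 5357 in replacement, and without Prom1, a gene chosen after its values were seen, to 3815 to 4368 and 2817 to 3467. Of 11 markers of the epithelium, the keratins Krt19 and Krt20 rose, by 1.27 (adjusted p = 0.0103) and 1.35 (adjusted p = 0.0274). Of 9 enterocyte markers, 7 had a difference below 0, with a median of -0.12. Anpep, a brush border peptidase, fell by 1.16 (adjusted p = 0.0416). Lct gave -0.87 (adjusted p = 0.117) and Slc5a1 -0.41 (adjusted p = 0.301), and in all of these named genes the replacement arrays lay below the control arrays. The enterocyte markers summed to 33089 to 35813 in control and 25341 to 35895 in replacement. Among 4 Paneth cell markers tested, 2 were above and 2 below 0, with a median of -0.16. Mmp7 rose by 1.30 (adjusted p = 0.0440), while Itln1 gave -1.09 (adjusted p = 0.158) and Lyz1 -0.53 (adjusted p = 0.425). Their sums were 2736 to 6737 in control and 2648 to 4188 in replacement.

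For cells outside the epithelium, Csf1r, a receptor of macrophages, fell by 1.44 (adjusted p = 0.0143), and the 9 myeloid markers on the array summed to 2747 to 3078 in control and 1125 to 1782 in replacement. Most of that sum was Csf1r, and without it, a choice made after its values were seen, the sums overlapped, at 274.1 to 651.2 in control and 348.3 to 510.2 in replacement. The other 5 myeloid markers tested did not pass, at -0.46 for Cd68, -0.31 for Itgax, -0.14 for Adgre1, -0.07 for Lyz2 and -0.02 for Cx3cr1. All 6 myeloid markers tested had a difference below 0, with a median of -0.23. Of 9 T cell markers on the array 5 were at the floor on every array, and their sums were 106.4 to 200.8 in control and 95.6 to 145.6 in replacement. Fibroblast markers summed to 1222 on control 1, 212.0 on control 2 and 215.8 on control 3, and to 395.4 to 511.0 in replacement, so control 1, the control array with the higher member values, was also the one with the most fibroblast transcripts. No marker of goblet cells, enteroendocrine cells, T cells, B cells, fibroblasts, smooth muscle or endothelium passed in limma, and 0 of them had an unadjusted p under 0.05. The part of these cells in the members' differences was not tested.

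Other genes of the same stages were taken from lists of related genes. Of 16 other mitotic entry kinases and cyclin partners, 4 rose and none fell, with a median difference of 0.71 and 10 higher at an unadjusted p under 0.05. Trip13, an ATPase that remodels checkpoint complexes, read 101.2, 87.9 and 84.4 in control and 225.5, 315.1 and 308.4 in replacement. Its groups were far apart, at a difference of 1.58 (SE 0.253, adjusted p = 0.00538). Nek2, a centrosome kinase, rose by 1.33 (SE 0.264, adjusted p = 0.0143) and Melk, a kinase of dividing cells, by 1.25 (SE 0.265, adjusted p = 0.0196). Of 26 other spindle and midbody genes, 4 rose and none fell, with a median of 0.47. Cep55, which brings the abscission machinery to the midbody, had 100.2, 79.5 and 95.3 in control and 241.5, 499.9 and 454.0 in replacement. Its difference of 2.02 (SE 0.329, adjusted p = 0.00585) was larger than that of any member. Kif22, a kinesin on chromosome arms, rose by 1.23 (SE 0.240, adjusted p = 0.0135), on a probe set that may cross-hybridize. Kpna2, an importin that binds spindle factors, rose by 1.05 (SE 0.245, adjusted p = 0.0289).

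The other kinetochore and checkpoint genes, a list that did not hold Trip13, gave no call among 33 in limma. At an unadjusted p under 0.05, 6 of them were higher, and their median was 0.28. Their smallest p belonged to Ska1 (0.96, SE 0.264, adjusted p = 0.0538), where control and replacement arrays overlapped. Spdl1 and Sgo1 followed, at 0.87 (adjusted p = 0.0797) and 0.98 (adjusted p = 0.0891). Among 13 other condensin and cohesin subunits none passed in limma, with 1 higher at an unadjusted p under 0.05, and the median was 0.18. Ncaph, of condensin I, gave 0.61 (adjusted p = 0.150), and Smc3 of cohesin and Ncapg2 of condensin II gave 0.38 and 0.35. The 17 subunits and regulators of the anaphase-promoting complex had a median of 0.08, with none higher and 1 lower, where 4.66% of all genes were lower. Anapc15, a small subunit, read 302.0, 270.4 and 294.1 in control and 176.1, 137.9 and 99.3 in replacement, and fell by 1.12 (SE 0.282, adjusted p = 0.0388). Anapc13 and Anapc16 gave -1.20 (adjusted p = 0.0854) and -0.75 (adjusted p = 0.104), both with all replacement arrays below all control arrays.

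The 11 DREAM and MuvB components had a median of 0.07 and no call in limma, with 3 higher and 1 lower at an unadjusted p under 0.05. Tfdp1, the partner of E2F factors, gave 1.05 (SE 0.288, adjusted p = 0.0524), Mybl2, which is B-Myb, gave 0.76 (SE 0.227, adjusted p = 0.0709), and Lin9, a MuvB subunit, gave 0.86 (adjusted p = 0.162). Of 17 regulators of G1 and S phase, 1 rose and 1 fell, where 4.46% of all genes rose and 4.66% fell, and the median was 0.36. E2f8, an atypical E2F that represses cell cycle genes, read 361.0, 403.4 and 370.6 in control and 116.3, 116.7 and 116.0 in replacement. Its arrays agreed closely within each group, and it fell by 1.68 (SE 0.222, adjusted p = 0.00197). Myc, a transcription factor of growing cells, had 102.8, 104.6 and 104.4 against 167.3, 316.6 and 222.5 and rose by 1.13 (SE 0.294, adjusted p = 0.0429). Ccne1, cyclin E1, gave 0.85 (adjusted p = 0.0613).

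Of 6 inhibitors of cyclin-dependent kinases none passed in limma. At an unadjusted p under 0.05, 4 were lower and 0 higher, and the median was -0.73. Cdkn1b, p27, read 351.5, 376.1 and 382.5 in control and 253.3, 217.8 and 161.9 in replacement, a difference of -0.82 (SE 0.262, adjusted p = 0.0878), and Cdkn2d and Cdkn2c gave -0.78 (adjusted p = 0.120) and -0.68 (adjusted p = 0.118). In these 3 genes all replacement arrays lay below all control arrays. Cdkn1c gave -0.98 (adjusted p = 0.125), and its replacement arrays too lay below all control arrays. Its controls spread widely, at 559.3, 1311.5 and 1312.4, against 363.2, 510.1 and 443.8 in replacement. The other inhibitors had differences above 0, at 0.43 for Cdkn2b (adjusted p = 0.334), where all replacement arrays lay above all control arrays, and at 0.46 for Cdkn1a (adjusted p = 0.399). Of 31 DNA replication genes, 3 rose and none fell, with a median of 0.35 and 11 higher at an unadjusted p under 0.05. Rrm2, the small subunit of ribonucleotide reductase, had 195.7, 173.3 and 178.4 against 421.1, 675.7 and 613.8 and rose by 1.59 (SE 0.270, adjusted p = 0.00708). Mcm5, of the replicative helicase, rose by 1.42 (SE 0.274, adjusted p = 0.0127), and Cdc6, which loads that helicase, by 1.11 (SE 0.273, adjusted p = 0.0356). The probe sets of Rrm2 and Mcm5 may cross-hybridize. These lists were not compared with the members by a test, and each is set beside the median of all genes, -0.02.

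**Figure D5:**
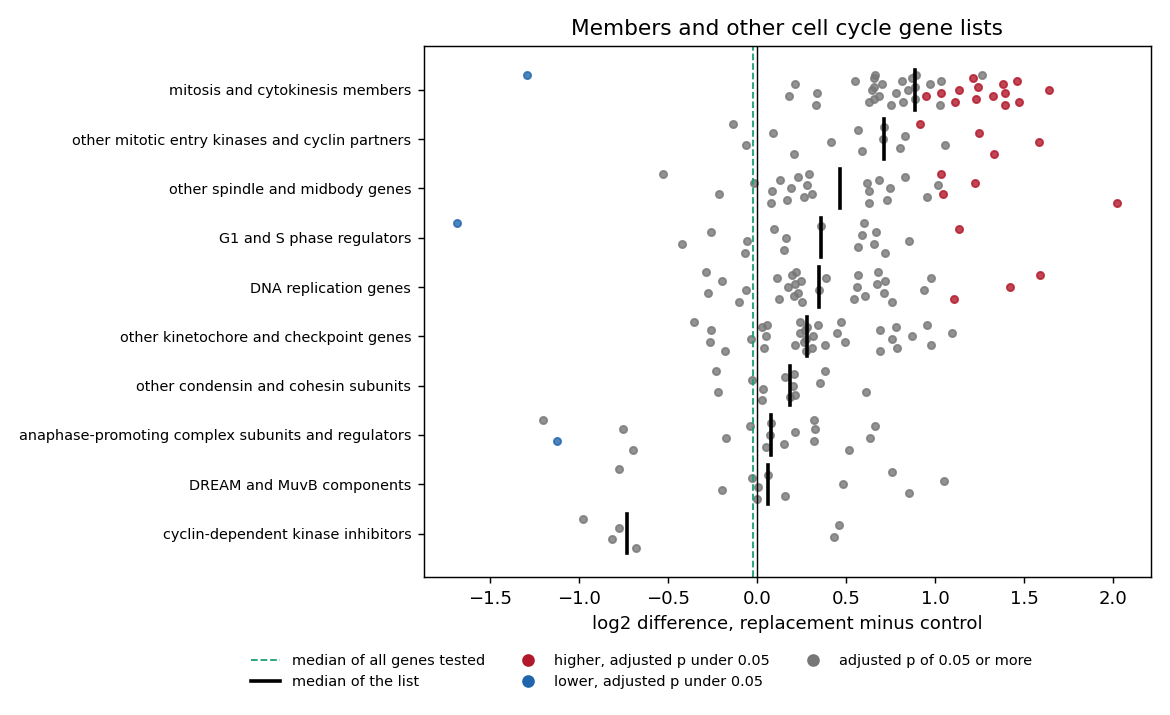
Log2 difference, replacement minus control, of each gene tested (points) in the members and in 9 other lists of cell cycle genes, with black bars for the list medians and a dashed line for the median of all genes tested, -0.02. The members have a median of 0.89 with a single point below 0, Pttg1, and the kinase inhibitors have the only list median below 0, -0.73.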

How the data were processed

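The authors' deposited table holds linear probe set intensities, already scaled before deposit, since the mean of an array without its lowest and highest 2% was 100 on every array. GCRMA and limma were used per the submitters' processing notes, and the summary method was not given in the sources used here. Intensities under 16 were set to 16 and log2 was taken, which compresses differences of dim transcripts. Of 45101 probe sets, 26664 with at least 3 of 6 arrays at 16 or more were kept. The probe set with the highest mean stood for its gene, which gave 12995 genes. Of 34958 probe sets with 1 gene symbol, 34754 matched the RefSeq gene table of GRCm38.p6 by Entrez identifier.

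Control 2 and control 3 were averaged as 1 replicate. The fit used limma 3.58.1 (lmFit and eBayes) in R 4.3.3, with Benjamini-Hochberg adjustment over all genes, and was tested on simulated data. For arrays, their number limits the precision. Every member is named, with the 3 smallest p of each related list and the called genes of each marker list. Other marker genes and the other 3 kinase inhibitors were named after their values were seen. The members and lists were chosen with earlier results of these data known. Alternatives were another floor, filters, scalings, probe set rules, eBayes options, a sex term, a replicate block and each replicate left out, and, added after seeing the data, control 2 or control 3 alone. Promoter motifs were counted with no test. Figures were drawn with matplotlib 3.10.9.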

Additional observations from a re-analysis of the deposited data

How the results depend on the processing

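The 14 members higher and 1 lower became 7 and 0 with no floor, 0 and 0 with no filter (25 at an unadjusted p under 0.05 in limma), 23 and 1 of 36 with a filter at 64, 24 and 1 with 6 separate arrays, and 23 and 1 with the replicate number as a block. The 580 genes higher and 605 lower became 427 and 389 with no floor, 70 and 92 with no filter, 441 and 386 with array medians, 1118 and 1234 with 6 arrays and 994 and 1108 with the replicate block. With trend and robust options 21 members were higher. Leaving out 1 replicate gave 0 to 23 members higher and 0 to 1 lower, and 3 to 827 genes higher and 1 to 833 lower. The median of the members ranged from 0.753 to 0.998 over all settings. The 15 called members kept their sign in all 17 alternatives, and none of them kept its call in all.

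Top2a was at -0.14 with the mean of its probe sets. Without 1 replicate, Cdkn3 ranged from -0.00222 to 0.391 and Espl1 from -0.0222 to 0.389. The replicate numbers did not pair the samples, with correlations of same-numbered deviations of -0.0549 to -0.000794. The causes of these changes were not tested. Signal near the floor limits Ndc80, Foxm1 and Cdc25c, and 2 control replicates limit every call.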
